A study of Mus musculus with 6 samples.

Results

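The complement genes of peritoneal macrophages were described from RNA-seq of WT and FOXO3 KO mice. The set holds C1qa, C1qb, C1qc, C2, C3, C4b, Cfb, Cfp and C3ar1, which were matched by symbol, and all 9 were found among the 54648 symbols of the count table. The groups were 3 libraries of WT mice and 3 of FOXO3 KO mice, all of strain C57BL/6 and 6 to 8 weeks of age, and each mouse had received thioglycollate, an irritant that draws monocytes into the abdominal cavity, before its peritoneal cells were harvested. The study's methods name homozygous WT and FOXO3 KO littermates identified by genotype, males and females, and call the harvested cells mostly macrophages, with no sorting step described. The labels do not give the sex of a mouse. The comparison asks which transcripts of these cells differ when the transcription factor FOXO3 is lost.

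Complement is a cascade of plasma and locally made proteins that mark targets for uptake and attract phagocytes. C1q, built from A, B and C chains, recognises antibody and dying cells and starts the classical route, in which C4 and C2 form an enzyme that cleaves C3. In the alternative route factor B forms the corresponding enzyme with C3 itself, and properdin steadies it. The small fragment C3a signals through the C3a receptor. The liver makes most plasma complement, while C1q and properdin are largely made by myeloid cells, and macrophages also make C3, C2, C4 and factor B at inflamed sites.

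Library totals were between 28083393 and 36424117 counts. The unit CPM stands for counts after scaling every library to one size, with TMM factors from edgeR. Foxo3, the targeted gene, was 117, 107 and 73.1 CPM in the WT libraries 1, 2 and 3, against 4.71, 104 and 4.29 CPM in those of FOXO3 KO 1, 2 and 3. The library labelled FOXO3 KO 2 therefore held Foxo3 within the WT range, against its label, and is named FOXO3 KO 2 only for that label. WT 3 stood apart across genes, with Pearson's r of log2 expression between 0.917 and 0.951 to every other library, where all pairs without it had r between 0.980 and 0.990. WT 3 also held both Xist, at 871 CPM, and the Y-linked Ddx3y, at 23.7 CPM, so that it came from 1 mouse is not shown, and it counts as 1 of n = 3 by its label. Tests of the 9 genes were therefore run over all 6 libraries as labelled, and also without the library labelled FOXO3 KO 2, without WT 3 and without both. Markers of macrophages (12 genes, among them Adgre1, Csf1r, Cd68 and Lyz2) summed to between 13207 and 18075 CPM in all 6 libraries, macrophages being the cell type that the labels give. More than any other gene, Lyz2 (7746 to 11429 CPM) set this sum, and within the list Cd68, Mrc1 and Fcgr1 were lowest in WT 3, at 525, 193 and 62.2 CPM, where they were at least 990.4, 464 and 142 CPM in the other libraries, while Adgre1 and Itgam were highest there. Csf1r, Lyz2, Mertk and Cd14 were lowest in WT 3 too, as was the sum of the macrophage markers. Hepatocyte markers (5 genes, among them Alb and Ttr) summed to at most 0.308 CPM.

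In the GENCODE M21 annotation of GRCm38, the build that the submitters' processing notes name as mm10, the C1q genes form a cluster on chromosome 4. There C1qb lies at 136880129 to 136886187, C1qc at 136889804 to 136893065 and C1qa at 136895917 to 136898803. C4b, at 34728380 to 34743882, and the neighbours Cfb, at 34856374 to 34862518, and C2, at 34862604 to 34898265, lie in one stretch of chromosome 17. C3 lies elsewhere on that chromosome, at 57203970 to 57228136, C3ar1 on chromosome 6 at 122847138 to 122856161 and Cfp on the X chromosome at 20925454 to 20931555. All 9 genes are annotated as protein coding and on the minus strand.

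RefSeq start sites and upstream sequence (GRCm38.p6) were matched for 5 of the 9 genes, C1qb, C1qc, C3, C3ar1 and Cfp. The 250 bases before the start are shown for C1qb, whose level was even across libraries, for C3, which ranged widely, and for C3ar1, which was low where several of the others were high. Capitals mark matches to any of 3 motifs, searched on both strands: GTAAACA (forkhead core), GAGGAA (PU.1 core) and TTGCNNAA (C/EBP).
C1qb (chr4:136886201-136886450, minus strand): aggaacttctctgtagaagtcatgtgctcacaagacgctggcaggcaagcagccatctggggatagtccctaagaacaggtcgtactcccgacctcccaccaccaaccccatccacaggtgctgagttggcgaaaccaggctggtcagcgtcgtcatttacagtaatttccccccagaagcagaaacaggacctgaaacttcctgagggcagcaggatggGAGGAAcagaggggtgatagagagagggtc
C3 (chr17:57228137-57228386, minus strand): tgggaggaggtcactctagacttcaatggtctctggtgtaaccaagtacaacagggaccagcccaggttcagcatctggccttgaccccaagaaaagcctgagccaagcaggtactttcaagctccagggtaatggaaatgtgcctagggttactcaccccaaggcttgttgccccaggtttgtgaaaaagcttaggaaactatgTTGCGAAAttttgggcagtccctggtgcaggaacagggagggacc
C3ar1 (chr6:122856158-122856407, minus strand): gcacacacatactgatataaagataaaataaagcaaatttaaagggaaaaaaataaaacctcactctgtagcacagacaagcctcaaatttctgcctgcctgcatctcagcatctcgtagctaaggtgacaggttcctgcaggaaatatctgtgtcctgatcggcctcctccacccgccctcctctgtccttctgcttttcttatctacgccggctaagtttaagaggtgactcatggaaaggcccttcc

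The forkhead core, to which FoxO factors bind, was found in 0 of these 5 windows, and in 3.17% of all 32851 windows of the same length. The PU.1 core (23.3% of all windows) was found in C1qb at 30 bases before the start, counting to the first base of the match, and in C1qc, and no 2 matches overlapped. In C3 the match was to the C/EBP motif (9.56% of all windows), 45 bases before the start. No match was found in C3ar1 or Cfp. Another annotated C1qc transcript starts 151 bases upstream of the RefSeq start, inside the window searched. Matches and their absence describe these letters only.

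The C1q chains were among the most abundant transcripts and differed little between libraries. C1qa was 590.2, 625 and 811 CPM in the WT libraries 1, 2 and 3, against 643, 771 and 731 CPM in those of FOXO3 KO 1, 2 and 3. C1qb was 934, 1126 and 923 CPM in the WT libraries, against 1076, 1145 and 1118 CPM in those of FOXO3 KO. C1qc was 757, 861 and 1009 CPM in the WT libraries, against 798, 979 and 865 CPM in those of FOXO3 KO. The groups overlapped for all of the chains, and the highest library exceeded the lowest by 1.37-fold for C1qa, 1.24-fold for C1qb and 1.33-fold for C1qc. A ratio under 2-fold was found for 59.4% of all genes tested. The log2 fold changes, FOXO3 KO over WT, were 0.08 (95% confidence interval -0.35 to 0.52) for C1qa, 0.16 (-0.23 to 0.55) for C1qb and 0.01 (-0.42 to 0.44) for C1qc. These intervals leave room for moderate changes in either direction, and the sign of C1qa and C1qc turned when single libraries were left out. In bulk RNA, here and in what follows, fewer cells of a type and less RNA per cell cannot be told apart.

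Levels of different genes were compared per length, as TPM (counts divided by the summed exon length of each gene and scaled to the same total in every library). The median over the 6 libraries was 3162 TPM for C1qb, 2192 TPM for C1qa and 1454 TPM for C1qc. Each of these medians was above those of at least 99.8% of genes with a count. With the longest transcript as the length, the median of C1qc was 1818 TPM and that of C1qa 1708 TPM, so the order of this pair depends on the length used. The median of C1qb was then 2462 TPM, so the share of each chain depends on the length too. With summed exon lengths, C1qb made up between 45.8% and 49.7% of the summed C1q TPM in 5 libraries, and 39.4% in WT 3. There C1qa and C1qc were the highest of the 6 libraries while C1qb, at 923 CPM, was the lowest by little, beside 934 CPM in WT 1.

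The genes of the C3-cleaving enzymes and their substrate ranged far more widely, and WT 3 and the library labelled FOXO3 KO 2 were the 2 highest libraries for each of C2, C3, C4b and Cfb. C3, the central protein of the cascade, was 85.6, 70.7 and 216 CPM in the WT libraries 1, 2 and 3, against 96.3, 276 and 158 CPM in those of FOXO3 KO 1, 2 and 3. Its lowest levels were those of WT 2 and WT 1, and the groups overlapped through WT 3. C4b, the mouse C4 of the classical route, was 168, 95.3 and 3041 CPM in the WT libraries, against 115, 383 and 203 CPM in those of FOXO3 KO. WT 3 thus held C4b at 23.1 times the mean of the other WT libraries, from 108783 counts against 6078 and 2700. Cfb, factor B of the alternative route, was 43.5, 47.3 and 299 CPM in the WT libraries, against 48.7, 123 and 67.6 CPM in those of FOXO3 KO. C2, which supplies the protease of the classical enzyme, was at 1.77, 1.45 and 5.87 CPM in the WT libraries, against 1.91, 8.03 and 2.61 CPM in those of FOXO3 KO, from 41 to 220 counts.

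**Figure D1:**
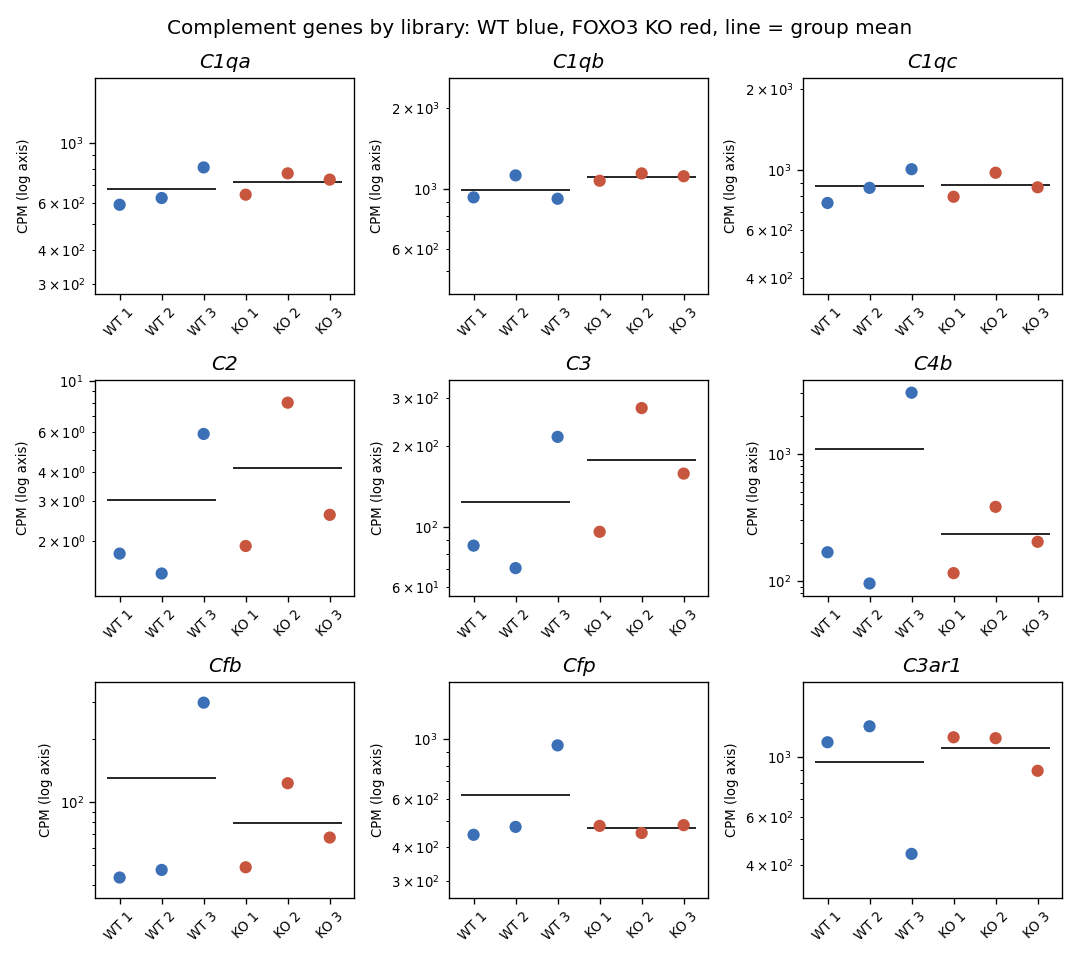
Expression of the 9 complement genes in each library, in CPM on a log axis, with WT in blue, FOXO3 KO in red (labelled KO) and a line at each group's mean. The C1q chains lie within 1.37-fold across all libraries, C4b reaches 3041 CPM in WT 3 against 95.3 to 383 CPM elsewhere, and C3ar1 is lowest in WT 3 at 439 CPM.

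The WT 3 library exceeded the mean of WT 1 and WT 2 by 3.65-fold for C2, 2.76-fold for C3 and 6.60-fold for Cfb. The library labelled FOXO3 KO 2 exceeded the mean of FOXO3 KO 1 and 3 by 3.55-fold for C2, 2.17-fold for C3, 2.41-fold for C4b and 2.11-fold for Cfb. Over all 9 genes, WT 3 and FOXO3 KO 2 were the 2 highest libraries for 6 (C1qa, C1qc, C2, C3, C4b and Cfb), as they were for 6.52% of all genes tested. This order was looked for after the values were seen.

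The makeup of this group also differed in WT 3. Per length, C4b was between 1.08 and 1.78 times C3 in 5 libraries and 12.7 times C3 in WT 3. C4b made up 78.1% of the summed TPM of C4b, C3, Cfb and C2 in WT 3, and between 35.2% and 47.6% in the others. Median levels were 111 TPM for C4b, 83.1 TPM for C3, 69.1 TPM for Cfb and 1.96 TPM for C2, and the ranges of C4b, C3 and Cfb overlapped widely. C4b shares 48.3% of its 31-base words with C4a, its near copy, so reads of the pair depend on how they were divided. C4a was listed at between 1.31 and 5.37 CPM, and C4b had at least 57.4 times its counts in every library. The read-through gene Gm20547 spans Cfb and part of C2 and shares 75.5% and 40.2% of their 31-base words with it, and was listed at 7 counts in WT 1 and 0 elsewhere.

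**Figure D2:**
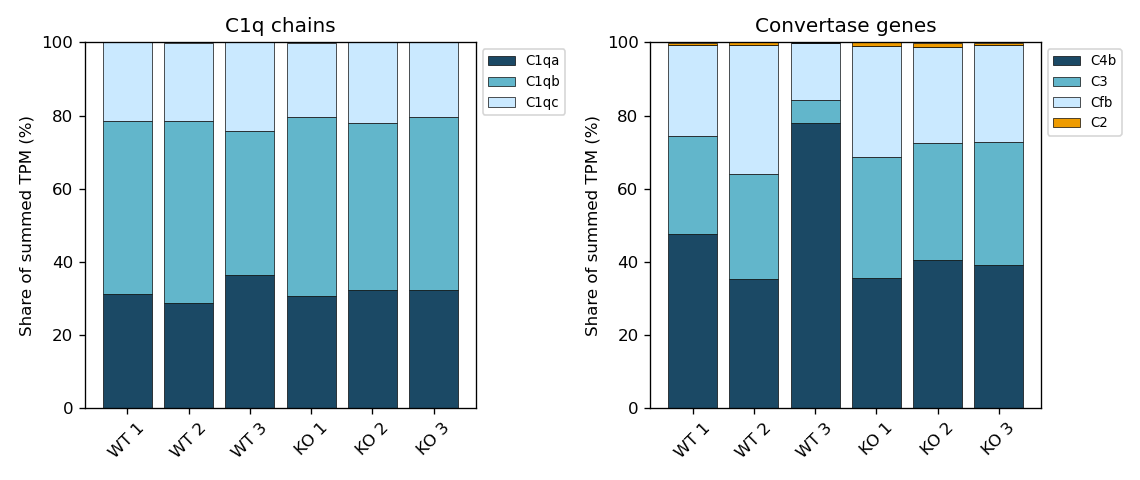
Share of each gene in the summed TPM, in percent, for the C1q chains (left) and for C4b, C3, Cfb and C2 (right) in the 6 libraries, with FOXO3 KO labelled KO. TPM used summed exon lengths, and the shares depend on that choice. The C1qb share is 39.4% in WT 3 and at least 45.8% elsewhere, and the C4b share is 78.1% in WT 3 and at most 47.6% elsewhere.

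Cfp, which encodes properdin, was 444, 475 and 950.4 CPM in the WT libraries 1, 2 and 3, against 479, 451 and 482 CPM in those of FOXO3 KO 1, 2 and 3. WT 3 lay apart, at 2.07 times the mean of the other WT libraries, and the other 5 libraries spanned a narrow range that includes FOXO3 KO 2. Without WT 3 the log2 fold change was 0.05 (95% confidence interval -0.17 to 0.26), against -0.41 (-1.16 to 0.35) with it. Its median level of 868 TPM was close to that of C3ar1, at 879.7 TPM, and both lay below the C1q chains and above C3, C4b, Cfb and C2.

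C3ar1, which encodes the receptor of C3a, was lowest in the library where C4b, Cfb and Cfp were highest. It was 1135, 1300 and 439 CPM in the WT libraries 1, 2 and 3, against 1184, 1175 and 890.2 CPM in those of FOXO3 KO 1, 2 and 3. WT 3 was the lowest library, at 0.360 times the mean of the other WT libraries, and the remaining libraries overlapped between the groups. The log2 fold change, by edgeR, was 0.18 (SE, standard error, 0.41) over all 6 libraries and -0.16 (SE 0.16) without WT 3. The CPM of C3 was 0.0544 to 0.235 times that of C3ar1 in 5 libraries and 0.492 times in WT 3, a ratio within each library that carries no length correction and is compared only between libraries.

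Between the groups, 0 of the 9 complement genes passed an FDR of 0.05 with a fold change over 1.5 by the quasi-likelihood test of edgeR with every library in, adjusted p being between 0.843 and 0.993. Of all 15608 genes tested, 0 were called in either direction (0% and 0%). Foxo3, the targeted gene, was thus not called by this test either, with FOXO3 KO 2 holding it at 104 CPM, within the WT range. Without that library its log2 fold change was -4.46 (SE 0.29), and its adjusted p of 0.105 by the same test was still no call. The lack of a call therefore does not show a lack of change. At an unadjusted p under 0.05, 0 of the 9 passed, beside 4.04% of all genes higher and 1.65% lower in FOXO3 KO. The likelihood ratio test of edgeR called 0 of the 9 (0.654% of all genes higher and 0.0448% lower), as did DESeq2 (0.756% and 0.0384%), which gave no p for C4b, and limma-voom (0% and 0%). The groups overlapped for 9 of 9 genes, where 12.4% of all genes tested (1929 of 15608) did not overlap in either direction. An exact two-sided permutation test of CPM gave p between 0.30 and 1.0 for the 9 genes, the smallest p that 3 libraries against 3 allow being 0.10. The labels do not say that the libraries of a group are separate mice, and all p-values measure the spread between these libraries.

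Among the 9 genes the largest estimates also had the widest errors. C4b averaged 1102 ± 1680 CPM (SD, n = 3) over the WT libraries and 234 ± 137 CPM (SD, n = 3) over those of FOXO3 KO, which edgeR fitted as a log2 fold change of -2.24 (SE 1.34) with an adjusted p of 0.843. Without WT 3 it was 0.83 (SE 0.51). Cfb went from 130.0 ± 147 CPM to 79.7 ± 38.6 CPM, with a log2 fold change of -0.71 (SE 0.82) that was 0.82 (SE 0.37) without WT 3. The negative direction of both genes thus rested on 1 library. C2 had a log2 fold change of 0.46 (SE 0.76), which was -0.42 (SE 0.70) without FOXO3 KO 2 and 1.38 (SE 0.65) without WT 3. Without both libraries C2 was 0.49 (SE 0.31), C4b 0.27 (SE 0.36) and Cfb 0.36 (SE 0.17).

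C3 kept the same sign in all of these sets. It averaged 124 ± 79.9 CPM (SD, n = 3) over the WT libraries and 177 ± 91.4 CPM (SD, n = 3) over those of FOXO3 KO, and the fitted log2 fold change was 0.51 (SE 0.55). Without FOXO3 KO 2 it was 0.04 (SE 0.55), without WT 3 it was 1.18 (SE 0.42, unadjusted p = 0.0281 and adjusted p = 0.537 from edgeR) and without both it was 0.70 (SE 0.25, unadjusted p = 0.0328 and adjusted p = 0.502 from edgeR). DESeq2 without WT 3 gave 1.17 (SE 0.57, adjusted p = 0.512), where it called 0.893% of all genes higher and 0.0697% lower. C3 therefore passed an FDR of 0.05 in none of these sets. The quasi-likelihood test called 0% of all genes in each direction with either library left out, and 0.0192% higher and 0.00641% lower with both left out, 0 of the 9 among them.

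Over sets of libraries, the complement genes shifted as follows. Without the library labelled FOXO3 KO 2, 0 of 9 passed an unadjusted p under 0.05 by edgeR (3.05% of all genes higher and 1.26% lower) and 0 of 9 did not overlap (11.0% and 9.23%). Without WT 3, 1 of 9 passed in the quasi-likelihood test of edgeR, C3, where 6.15% of all genes were higher and 2.25% lower. DESeq2 put 3 of 9 past this threshold in the same set, all higher, with log2 fold changes of 0.23 (SE 0.11) for C1qa, 1.37 (SE 0.64) for C2 and 1.17 (SE 0.57) for C3, beside 5.65% of all genes higher and 2.58% lower. Their adjusted p from DESeq2 was between 0.470 and 0.512. In that set 4 of 9 (C1qa, C2, C3 and Cfb) were higher in every FOXO3 KO library than in WT 1 and WT 2, beside 13.5% of all genes tested, and 0 of 9 were lower (11.9%). Without both libraries C3 again passed alone (5.49% of all genes higher and 3.39% lower), and 5 of 9 (C1qa, C2, C3, Cfb and Cfp) lay higher without overlap, beside 19.6% of all genes, and 0 of 9 lay lower (18.4%). Gaps between the lowest FOXO3 KO and highest WT levels there were small. They were 643 and 625 CPM for C1qa, 1.91 and 1.77 for C2 and 96.3 and 85.6 for C3. For Cfb they were 48.7 and 47.3 CPM, and for Cfp 479 and 475 CPM. Even 3 libraries against 2 allow no exact permutation p under 0.20. The median log2 fold change of the 9 genes was 0.08, -0.07, 0.25 and 0.18 over all libraries, without FOXO3 KO 2, without WT 3 and without both, and that of all genes tested was between -0.02 and 0.00.

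**Figure D3:**
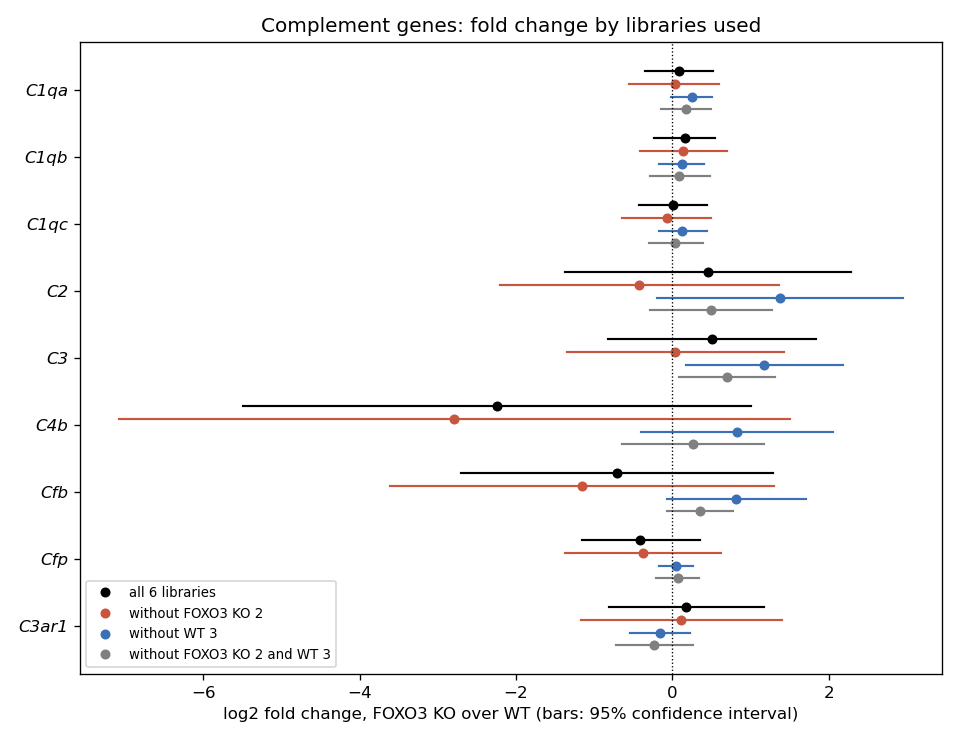
log2 fold changes of the 9 complement genes, FOXO3 KO over WT, from the edgeR fit over 4 sets of libraries, with 95% confidence intervals as bars. C4b is at -2.24 over all 6 libraries and at 0.83 without WT 3, and the intervals of the C1q chains stay between -0.64 and 0.70 in every set.

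Markers of other cells and of macrophage subsets also differed between libraries, in orders that were not all alike. Markers of resident peritoneal macrophages (9 genes, among them Timd4, Gata6, Selp and Prg4) summed to 6611 CPM in WT 3, where 9 of 9 had their highest level, and to between 233 and 646 CPM in the others, the second highest being FOXO3 KO 2. The summed range was 233 to 6611 CPM in WT and 297 to 646 CPM in FOXO3 KO. Gata6, which specifies this subset, reached 41.2 CPM in WT 3, followed by 16.9 CPM in the library labelled FOXO3 KO 2. The others held between 3.49 and 6.57 CPM of it. Timd4, Selp, Garnl3 and Prg4 also had FOXO3 KO 2 as the second highest library. Icam2, F5, Alox15 and Lyve1, of the same list, were higher in FOXO3 KO 3 than in FOXO3 KO 2. Markers of mesothelial cells and fibroblasts (14 genes, among them Wt1, Upk3b, Col1a1 and Dcn) summed to 526 CPM in the library labelled FOXO3 KO 2, where 11 of 14 were highest, to 107 and 189 CPM in FOXO3 KO 1 and 3, and to between 54.3 and 83.0 CPM in WT. Col3a1, Col1a2 and Dcn held most of this sum, at 174, 146 and 90.1 CPM in FOXO3 KO 2. Krt8 and Krt18, of the same list, were highest in WT 3, at 7.02 and 2.01 CPM, beside 4.78 and 1.42 CPM in FOXO3 KO 2. Msln, a defining mesothelial gene, was also highest in WT 3, at only 0.224 CPM. B cell markers (8 genes) summed to 5742 CPM in WT 3 and to between 364 and 1509 CPM elsewhere. T cell markers (8 of 8) and mast cell markers (7 of 7) also had their highest levels in WT 3, with sums of 265 and 819 CPM against at most 87.2 and 299 CPM in the others. Neutrophil markers (13 genes) summed to between 137 and 225 CPM in WT and between 231 and 503 CPM in FOXO3 KO. The sums of WT 2 and FOXO3 KO 2 were thus nearly equal, at 225 and 231 CPM. In the WT libraries and FOXO3 KO 2 most of the sum was Csf3r, at 116 to 139 CPM. Csf3r was 159 and 164 CPM in FOXO3 KO 1 and 3. S100a8, S100a9 and Cxcr2 were highest in FOXO3 KO 1, at 83.2, 164 and 18.7 CPM, and next in FOXO3 KO 3, at 59.8, 117 and 14.4 CPM. In FOXO3 KO 2 they were 12.9, 6.93 and 2.23 CPM, and in WT at most 11.3, 5.61 and 0.886 CPM. Retnlg, Mmp8 and Mmp9 overlapped between the groups, and 5 of the 13 genes were under 1 CPM in every library. The part of these cells in the levels of C2, C3, C4b, Cfb, Cfp and C3ar1 was not tested.

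Other complement genes shared the order of C4b and Cfb only in part. Vsig4, a macrophage receptor for C3 fragments, shared their 2 highest libraries, with 287 CPM in WT 3 and 99.6 CPM in FOXO3 KO 2. It was lowest in FOXO3 KO 3, at 48.3 CPM, where C4b and Cfb were not lowest. Itgam had the same 2 highest libraries, at 1981 and 1970 CPM, but was at least 1580 CPM elsewhere. So did C1ra, a protease of the C1 complex, at 24.8 CPM in WT 3 and 32.7 CPM in FOXO3 KO 2, and at most 18.2 CPM elsewhere. These were 3 of the 25 other complement genes tested, beside 6.52% of all genes tested. C1s1, a protease of the C1 complex, was lowest in WT 3 at 2.26 CPM and highest in FOXO3 KO 2 at 36.5 CPM. Serping1, the inhibitor of that complex, was likewise highest in FOXO3 KO 2, at 7.44 CPM, and at most 1.11 CPM in the other 5 libraries. C5ar1, the receptor of C5a, was 110.0 CPM in WT 3 and between 209.9 and 251 CPM elsewhere, an order like that of C3ar1.

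**Figure D4:**
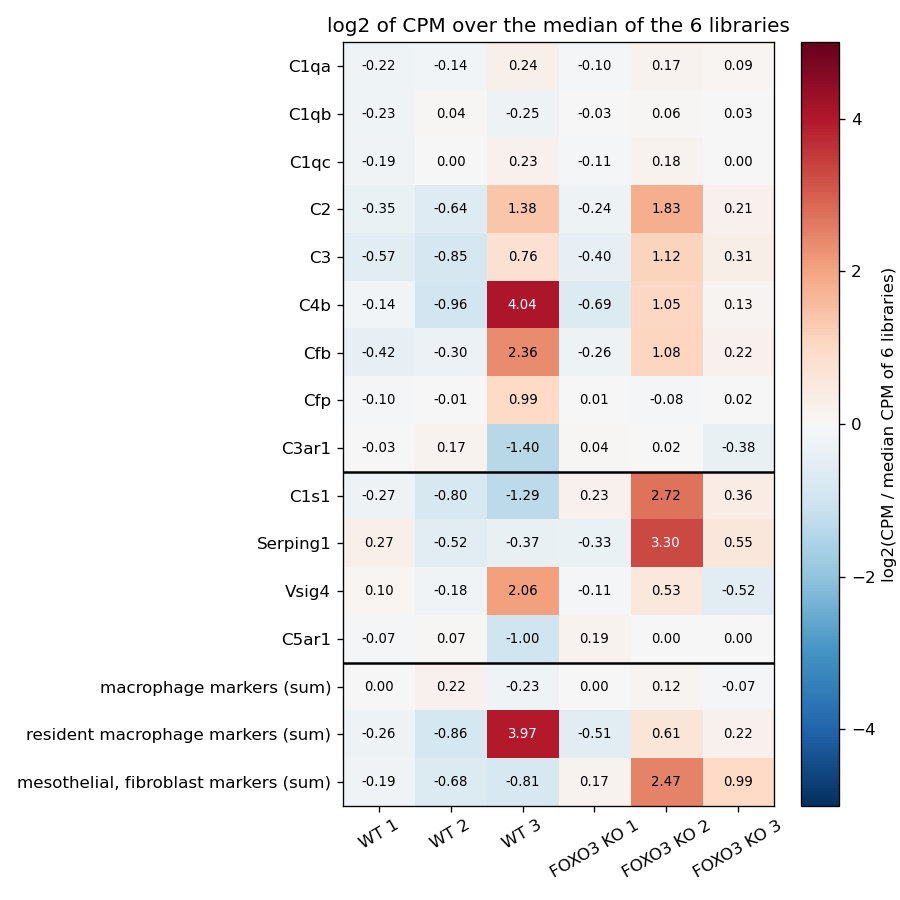
Each cell gives log2 of CPM over the median of the 6 libraries, for the 9 complement genes (top), 4 other complement genes (middle) and 3 summed marker lists (bottom). WT 3 is high for C4b (4.04) and for resident macrophage markers (3.97), while FOXO3 KO 2 is high for C2 (1.83), C1s1 (2.72), Serping1 (3.30) and mesothelial and fibroblast markers (2.47).

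Of 45 other genes of the complement pathway, 25 passed the filter on low counts and 0 passed an FDR of 0.05 with edgeR over all 6 libraries, where the adjusted p was between 0.714 and 0.981. At an unadjusted p under 0.05, 3 of the 25 were higher in FOXO3 KO (4.04% of all genes tested) and 0 were lower (1.65%), and these 3 (C1s1, Colec12 and Clu) were also higher without overlap. With C8g, at 0.300 to 0.554 CPM, which was lower without overlap and is named after its values were seen, 4 of 25 did not overlap, beside 12.4% of all genes. Without FOXO3 KO 2 the same 3 genes passed an unadjusted p under 0.05, beside 3.05% of all genes higher and 1.26% lower. Without WT 3 and without both libraries Fcna passed too, at 0.34 (SE 0.09) and 0.34 (SE 0.11), and without WT 3 C5ar2 was lower at -0.36 (SE 0.14). The shares of all genes were 6.15% higher and 2.25% lower without WT 3, and 5.49% and 3.39% without both. In each of these sets 0 passed an FDR of 0.05 with edgeR. Over all 6 libraries, the median log2 fold change of the 25 genes was 0.07 and that of all genes tested was -0.01. The genes past an unadjusted p under 0.05 in these libraries depended on the test. DESeq2 and the likelihood ratio test also put Serping1 higher, and Cd55 and Cr2 lower, and limma-voom put only Colec12 and Clu past it. The share of all genes past it in these tests is not given, so the names are a listing only. With a fold change over 1.5, 0 of the 25 passed an FDR of 0.05 in any of these tests.

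Colec12, a collectin that acts as a scavenger receptor, was 27.5, 19.5 and 62.4 CPM in the WT libraries 1, 2 and 3, against 89.4, 68.9 and 88.8 CPM in those of FOXO3 KO 1, 2 and 3. By edgeR the log2 fold change came to 1.17 (SE 0.43, with an adjusted p of 0.836), and to 1.82 (SE 0.20, with an adjusted p of 0.327) without WT 3, where DESeq2 gave an adjusted p of 1.14e-15. It was 1.29 (SE 0.49, with an adjusted p of 0.994) without FOXO3 KO 2, and 1.92 (SE 0.18, with an adjusted p of 0.0779) without both. With all 6 libraries DESeq2 gave Colec12 an adjusted p of 0.312. This call therefore depends on both the test and WT 3. Clu, which encodes clusterin, an inhibitor of the terminal steps, was 2.83, 2.19 and 1.71 CPM in the WT libraries, against 4.50, 12.9 and 5.07 CPM in those of FOXO3 KO, a log2 fold change of 1.74 (SE 0.48) that was 1.09 (SE 0.32) without FOXO3 KO 2, 1.58 (SE 0.51) without WT 3 and 0.93 (SE 0.25) without both. C1s1 was 4.57, 3.18 and 2.26 CPM in the WT libraries, against 6.48, 36.5 and 7.11 CPM in those of FOXO3 KO, with 2.32 (SE 0.76) over all libraries, 1.03 (SE 0.36) without FOXO3 KO 2, 2.10 (SE 0.85) without WT 3 and 0.81 (SE 0.25) without both. The levels of Clu and C1s1 were highest in the library with the highest sum of mesothelial and fibroblast markers, and the part of those cells was not tested.

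Regulators were detected at varied levels. Cr1l, the rodent regulator Crry, spanned only 115 to 135 CPM. Cd55, which speeds the decay of the C3-cleaving enzymes, and Cr2, a receptor of B cells, were highest in WT 3 at 279.5 and 104 CPM, where B cell markers were also highest. They were at most 63.6 and 13.5 CPM elsewhere, and the part of B cells was not tested.

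Receptors and binding proteins made up much of the detected list. Itgam and Itgb2, the chains of complement receptor 3, were between 1580 and 1981 CPM and between 1208 and 1744 CPM. Itgax, the partner of Itgb2 in complement receptor 4, was 46.3 CPM in WT 3 and between 128 and 177 CPM elsewhere. Cd93 and Lrp1 were lowest in WT 3, at 302 and 1118 CPM, and were at least 610.3 and 2377 CPM in the other libraries. Calr and C1qbp, whose proteins bind C1q, ranged from 598 to 768 CPM and from 36.1 to 45.8 CPM. C5ar2, the second C5a receptor, was 5.95 CPM in WT 3 and between 10.1 and 15.5 CPM elsewhere.

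Of the lectin route, Fcna, ficolin A, was 365 CPM in WT 3 and between 139 and 198 CPM elsewhere, while Mbl1 and Mbl2 had 0 counts in every library. C1ra, the partner protease of C1s1, was between 12.5 and 32.7 CPM and was highest in FOXO3 KO 2. Cfd, the factor D that activates factor B, had 0 counts in all 6 libraries. Of the terminal components, Hc, the mouse C5, was at most 0.150 CPM and C9 at most 0.0554 CPM, and C7 at most 0.0365 CPM.

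**Figure D5:**
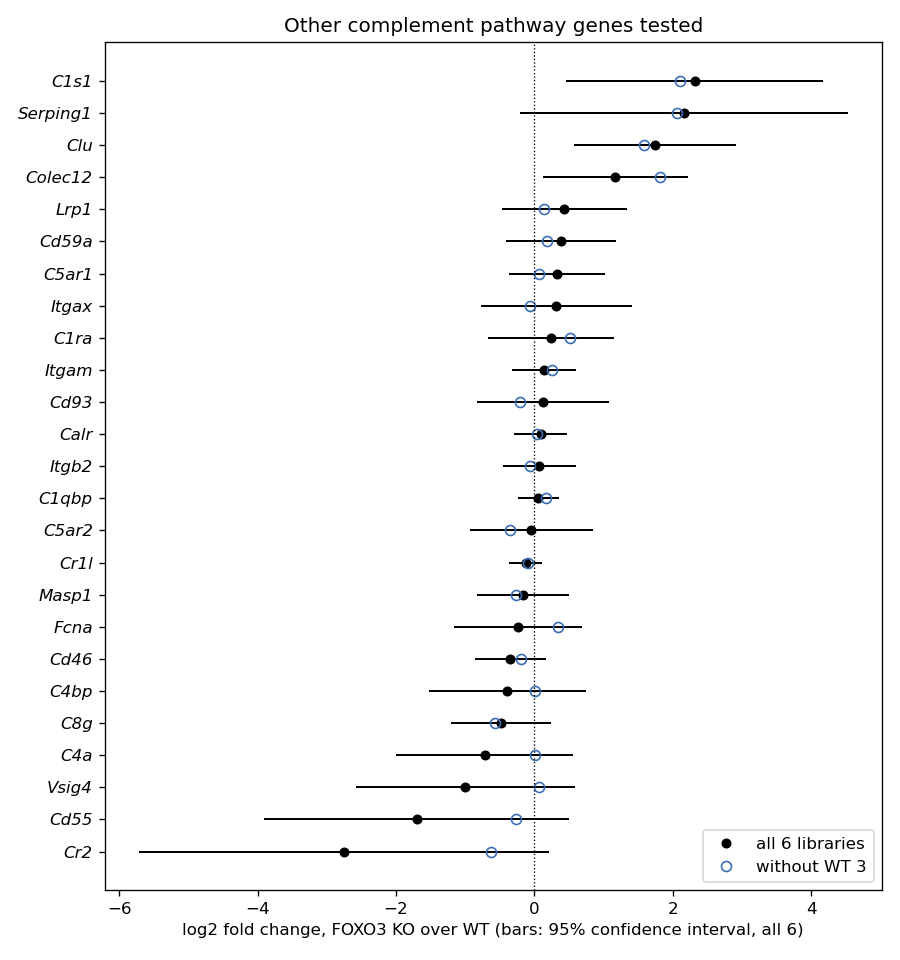
log2 fold changes, FOXO3 KO over WT, of the 25 other complement genes tested, with filled points and 95% confidence intervals for all 6 libraries and open points for the fit without WT 3. C1s1 (2.32), Clu (1.74) and Colec12 (1.17) have intervals above 0 over all 6 libraries, and the estimate of Cr2 moves from -2.75 to -0.63 without WT 3.

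Genes with the order of levels most like those of the complement genes were sought among 9262 other genes of at least 10 CPM, by Pearson's r over the 6 libraries, in which WT 3 or the library labelled FOXO3 KO 2 often held the extreme level. For C3 and for Rcn1 and Cav1 the highest library was FOXO3 KO 2, and for C3ar1 and its closest genes the lowest was WT 3. For C3 these were Rcn1 (r = 0.988), Cav1 (r = 0.973) and Nedd4 (r = 0.969), and without WT 3 r was between 0.983 and 0.987 over 5 libraries. Nedd4 was 24.1, 16.2 and 75.7 CPM in the WT libraries 1, 2 and 3, against 22.2, 72.9 and 34.5 CPM in those of FOXO3 KO 1, 2 and 3. For C3ar1 the closest were Atf3, Mfsd9 and Anpep, with r of at least 0.999, and without WT 3 of at least 0.992. Anpep was 1216, 1422 and 379 CPM in the WT libraries, against 1215, 1248 and 908 CPM in those of FOXO3 KO. For the mean of the C1q chains, whose range was small, they were Rrm1 (r = 0.944), Rdh10 (r = 0.927) and Fam122b (r = 0.917). These values describe 6 libraries and carry no test.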

How the data were processed

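RNA was sequenced in paired reads of 76 bp from 3 WT and 3 FOXO3 KO libraries. The authors deposited estimated counts per gene symbol, without normalization. Per the labels, the submitters' processing notes name STAR 2.6.1d, kallisto 0.46.0, DESeq2 and mm10, with no role or order. For the annotation and the strand setting, nothing is stated there or in the study's methods. Values within 0.01 of a whole number made up 81.4% of those deposited, and the rest were rounded to whole counts. Genes sharing reads with near copies depend on how those reads were divided.

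The quasi-likelihood test of edgeR 4.0.16 (R 4.3.3) was applied to counts that passed filterByExpr and were scaled by TMM. P-values were adjusted by the method of Benjamini and Hochberg across every gene tested. A call needed an FDR under 0.05 and a fold change over 1.5. A standard error was obtained by dividing the absolute log2 fold change by the root of the F statistic, and 95% confidence intervals use the test's degrees of freedom. Totals of 28083393 to 36424117 counts leave little counting error except for genes of few counts, so the spread between libraries sets the precision. Alternatives were the likelihood ratio test, DESeq2 1.42.0 (on the genes that passed the same filter), limma-voom (limma 3.58.1), other scalings and filters, the replicate number as a block, a covariate for high or low Xist (split at 100 CPM), and libraries left out. The fits were tested on simulated counts with known changes.

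TPM used exon lengths from GENCODE M21, in which 99.0% of symbols were found. The remaining values were computed in Python 3.11.15 (pandas 2.3.3, numpy 2.4.6, scipy 1.17.1). The members, the lists and the tests were chosen with earlier results of these data known. Named were the 9 genes, Foxo3, genes of the other complement list with an unadjusted p under 0.05 or a mean of at least 10 CPM, the 3 genes most like each of 3 patterns, and examples of marker lists; genes of that list named at lower levels (C4a, Serping1, C8g and those near 0) were chosen after their values were seen. Dendritic cell markers summed to 173 CPM in WT 3 and to between 50.0 and 109 CPM elsewhere. Only 1 of these 8 genes was highest in WT 3, Ccr7, at 119 CPM. Xcr1, Clec9a, Itgae and Siglech, of the same list, were lowest there, so the sum does not describe the list. DESeq2 without WT 3 was added after the data were seen. One further gene of the complement pathway was left out of the list and its counts and is not reported here; the unnamed genes of the list enter its counts. The authors' other data sets were not analysed here.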

Additional observations from a re-analysis of the deposited data

How the results depend on the processing

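Over all alternatives, 0 of the 9 complement genes were called. The 9 genes were refitted in 18 alternatives each, and 143 of 162 fits kept the direction. The fits with another direction came from leaving out libraries, and for C1qc also from library size without factors (-0.02). A kept direction does not mean a kept size. C4b was -2.24 in the main fit, -0.75 with limma-voom and -0.38 with the Xist covariate. For Cfb the same fits gave -0.71, -0.18 and -0.03. Leaving out 1 library at a time gave log2 fold changes of -0.01 to 0.25 for C1qa, -0.09 to 0.13 for C1qc, -0.42 to 1.38 for C2, -2.79 to 0.83 for C4b, -1.16 to 0.82 for Cfb, -0.61 to 0.05 for Cfp and -0.16 to 0.46 for C3ar1. C1qa and C1qc turned without WT 1, C1qc and C2 without FOXO3 KO 2, and C4b, Cfb, Cfp and C3ar1 without WT 3. Without FOXO3 KO 2 and WT 3 together, the values were 0.27 for C4b, 0.36 for Cfb, 0.07 for Cfp and -0.23 for C3ar1. DESeq2 gave -0.08 for C1qc and -0.42 for C2 without FOXO3 KO 2, and, without WT 3, 0.82 for C4b, 0.81 for Cfb, 0.03 for Cfp and -0.17 for C3ar1. The causes were not tested.

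Of 18 other complement genes, 287 of 306 fits kept the direction. With 1 library left out at a time, the ranges of those that turned were -0.17 to 0.51 for C1ra, -0.50 to 0.34 for Fcna, -0.36 to 0.19 for C5ar2, -0.06 to 0.74 for Itgax, -0.07 to 0.17 for Itgb2, -1.35 to 0.07 for Vsig4, -0.21 to 0.35 for Cd93 and -0.03 to 0.17 for C1qbp. Without FOXO3 KO 2 and WT 3 together, Fcna was 0.34, Itgax -0.03, Itgb2 -0.10 and Cd93 -0.28. DESeq2 without FOXO3 KO 2 gave -0.18 for C1ra and 0.04 for C5ar2, and C5ar2 was 0.09 with limma-voom and 0.06 with the Xist covariate.

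The number of genes called over the whole table was 0 with the quasi-likelihood test, 109 with the likelihood ratio test, 124 with DESeq2, 108 with DESeq2 without FOXO3 KO 2, and 4 without FOXO3 KO 2 and WT 3 together. Foxo3 itself was called in the last 2 of these, at -4.46 and -4.64, and ranged from -4.46 to -0.87 with 1 library left out. The quasi-likelihood test gave it -1.40 (SE 1.22, adjusted p = 0.859) over all 6 libraries. Without FOXO3 KO 2 that test gave -4.46 (SE 0.29, adjusted p = 0.105), and it called Foxo3 in neither set. DESeq2 over all 6 libraries gave Foxo3 a log2 fold change of -1.40 and no p. Same-numbered libraries had deviations from their group means correlated at r of 0.256, -0.0722 and 0.524 for numbers 1, 2 and 3. These uneven values do not settle whether libraries were paired. The labels state no pairs, and the numbers were not taken to pair mice. With the replicate number as a block, 0 genes were called, C4b was -0.73, C5ar2 0.06 and Foxo3 -3.06, and no call changed. Summed TPM of the 9 genes was 9388 ± 1650 (SD, n = 6) with summed exons and 8107 with the longest transcript.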

Other observations

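Cfp is X-linked, and the labels do not give the sex of the mice. Xist, the RNA of the inactive X chromosome, was 871 CPM in WT 3 and over 100 CPM in 1 other library, FOXO3 KO 3, which had 37681 counts of it, while the other 4 libraries had 2 to 5 counts. Ddx3y, a Y-linked gene, was 23.7 CPM in WT 3, between 98.7 and 123 CPM in the low-Xist libraries, and 2.37 CPM (79 counts) in FOXO3 KO 3. Cfp was 482 CPM in FOXO3 KO 3, beside 444 to 479 CPM in the low-Xist libraries, and 950.4 CPM in WT 3.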
